A study of Mus musculus with 12 samples.

Results

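The 59 genes described here encode eukaryotic translation initiation and elongation factors and the enzymes that act on them, measured in primary mouse oligodendrocyte precursor cells (OPCs). They were found by name: a transcript cluster, the array's unit for a gene, was kept when it carried 1 gene symbol beginning with Eif1 to Eif6 or Eef1 to Eef2 and was no pseudogene. This gave 60 clusters for 59 of the 30077 genes with a symbol of their own, 48 of them Eif and 11 Eef genes, and the brighter cluster was used for Eif3d, the only gene with more than 1. A mean of at least 6 log2 units over the 12 arrays was reached by 50 of them. The 9 dimmer ones, Eif2ak2, Eif2b4, Eif2d, Eif4a3l1, Eif4e1b, Eif4e3, Eef1aknmt, Eef2kmt and Eif2c5, stayed in every count. Eif2c5 has the name but not the role, since Eif2c is an old name of Argonaute genes, and it lay at 3.32 log2 units. Of 71 factors on the lists by complex, 58 were among these genes. Eif1, Eif2s1, Eif3a, Eif3g, Eif3j1, Eif4a2, Eif4a3, Eif4ebp3, Eif4g1, Eif5, Eef1g, Eef1akmt3 and Eef1akmt4 were not among the 59, because no cluster carried their symbol alone. Clusters that join some of these with another symbol are described apart.

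The OPCs came from C57Bl/6 pups at postnatal day 2, were sorted with anti-CD140a beads, proliferated for 48 h and were then switched to differentiation medium. About 4 h later they received extracellular vesicles (EVs), membrane-bound particles that primary microglia shed after ATP, at 2 donor microglia per OPC, or no vesicles, and RNA was taken at 24 h and hybridized to Clariom D arrays. The i-EVs came from microglia held with inflammatory cytokines, the IL4-EVs from microglia held with interleukin 4, and the MSC-EVs from microglia cultured together with mesenchymal stem cells with inflammatory cytokines added. CTRL OPCs were in medium alone, with no vesicles of resting microglia. Each group had 3 arrays, which the study's methods call independent replicates without saying whether cultures, litters or vesicle preparations were separate, and the p-values measure the spread between these arrays.

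Protein synthesis begins when eIF2 brings the initiator tRNA to the small ribosomal subunit, which also carries eIF1, eIF1A and the large scaffold eIF3, while eIF4F ties the mRNA cap to this complex. eIF5B then joins the large subunit, and eEF1 and eEF2 carry the ribosome along the coding sequence. The eIF2 kinases slow initiation under stress by blocking eIF2B, the exchange factor of eIF2, and mutations in the eIF2B subunits cause vanishing white matter disease, a leukodystrophy that affects glia.

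Values are log2 intensities after robust multi-array averaging (RMA), the differences are those of log2 means with the standard error (SE) of the limma fit, and calls have a Benjamini-Hochberg adjusted p under 0.05 over all 65535 clusters. All 6 measured OPC markers were above 6 log2 units and none of 10 microglia markers was, with a mean over that list of 3.25 to 3.47 in every array. Of the other cell types, 3 of 6 astrocyte and 4 of 7 neuron markers were above 6. Arrays within a group correlated at r = 0.990 to 0.999. Array 3 of the MSC-EVs stood apart, with a mean of 11.88 log2 units over 12 cell cycle genes, against 10.38 in each of the other arrays of its group, and of 10.22 over 6 genes of committed precursors, against 12.43 and 12.45. It had the lowest value of the 12 arrays for 13 of the 59 factors. The counts were therefore also made without it. In the other 8 vesicle arrays the cell cycle mean was 10.38 to 10.51, against 10.85 to 11.04 in CTRL. The mean of the OPC markers was 15.55 to 15.65 in all vesicle arrays, against 15.41 to 15.48 in CTRL, and that of the astrocyte markers 5.85 to 5.91, against 5.96 to 5.97. Over the genes of committed precursors it was 12.45 to 12.46 with IL4-EVs and 12.17 to 12.40 with i-EVs, against 12.03 to 12.25 in CTRL. These shifts go with the differences between vesicles and CTRL described below, and their part in them was not tested. Array 2 of the i-EVs had the lowest value for 8 factors and the highest array median, 3.65 against 3.53 to 3.58 log2 units in the other 11 arrays. Each array holds the RNA of a whole culture, in which fewer cells of a type and less RNA per cell cannot be told apart.

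Most factors that changed were lower in OPCs given vesicles, among them subunits of eIF3, eIF1 and eIF1A, eIF2A and the exchange complex of eEF1, while Eif5b and Eif4g3 went the other way. With MSC-EVs 26 of the 59 factors fell, 2 rose and 31 did not pass, beside 6.75% of all clusters lower and 5.86% higher. With IL4-EVs 18 fell, 2 rose and 39 did not pass (all clusters: 4.13% lower, 1.61% higher). With i-EVs 2 fell, none rose and 57 did not pass, beside 0.378% lower and 0.0977% higher. An unadjusted p under 0.05 was reached with i-EVs by 27 factors, 26 of them with a mean of at least 6. It was also reached by 8747 of all 65535 clusters and by 4817 of the 13061 that bright. Bright clusters were called more often than dim ones. Of the 50 factors with a mean of at least 6, 24 (48%) fell with MSC-EVs and 18 (36%) with IL4-EVs, beside 26.2% and 18% of the 13061 clusters that bright, and 2 rose with each, beside 15.3% and 6.47%.

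Over the 59 genes i-EVs had a median log2 difference from CTRL of -0.10, IL4-EVs one of -0.16 and MSC-EVs one of -0.21, against 0.02, 0.00 and -0.01 over all clusters. Among the 50 bright factors the medians were -0.14, -0.21 and -0.28, beside -0.07, -0.08 and -0.09 over bright clusters. Most changes were small, since a fold of at least 1.5 was reached by none with i-EVs, by 5 factors with IL4-EVs and by 8 with MSC-EVs, all lower (all clusters in either direction: 0.154%, 1.8% and 5.73%). All of these factors were among the 50 bright ones. Of the 13061 bright clusters, 794 were called lower and 316 higher at this fold with IL4-EVs, and 1510 lower and 1141 higher with MSC-EVs. The arrays of the 2 groups did not overlap, with the vesicle arrays lower, for 24, 32 and 34 factors (all clusters: 9.98%, 14.6% and 14.5%), and with the vesicle arrays higher for 7, 10 and 7 (9.52%, 11.8% and 12.4%). Among the 50 bright factors these counts were 22, 30 and 31 lower and 7, 10 and 6 higher. Among the 13061 bright clusters they were 4050, 5519 and 4856 lower and 1913, 3041 and 2901 higher. Without array 3 of the MSC-EVs, 24 factors fell and 3 rose with MSC-EVs, and 19 fell and 2 rose with IL4-EVs, while 9 fell with i-EVs in place of 2. The i-EV count ranged from 0 to 12 as each array was left out. How many rose depended on the scaling of the arrays: 22 fell and 7 rose with MSC-EVs, and 16 fell and 5 rose with IL4-EVs, after a further quantile normalization, and the counts after cyclic loess were 21 and 9 with MSC-EVs and 17 and 7 with IL4-EVs.

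**Figure D1:**
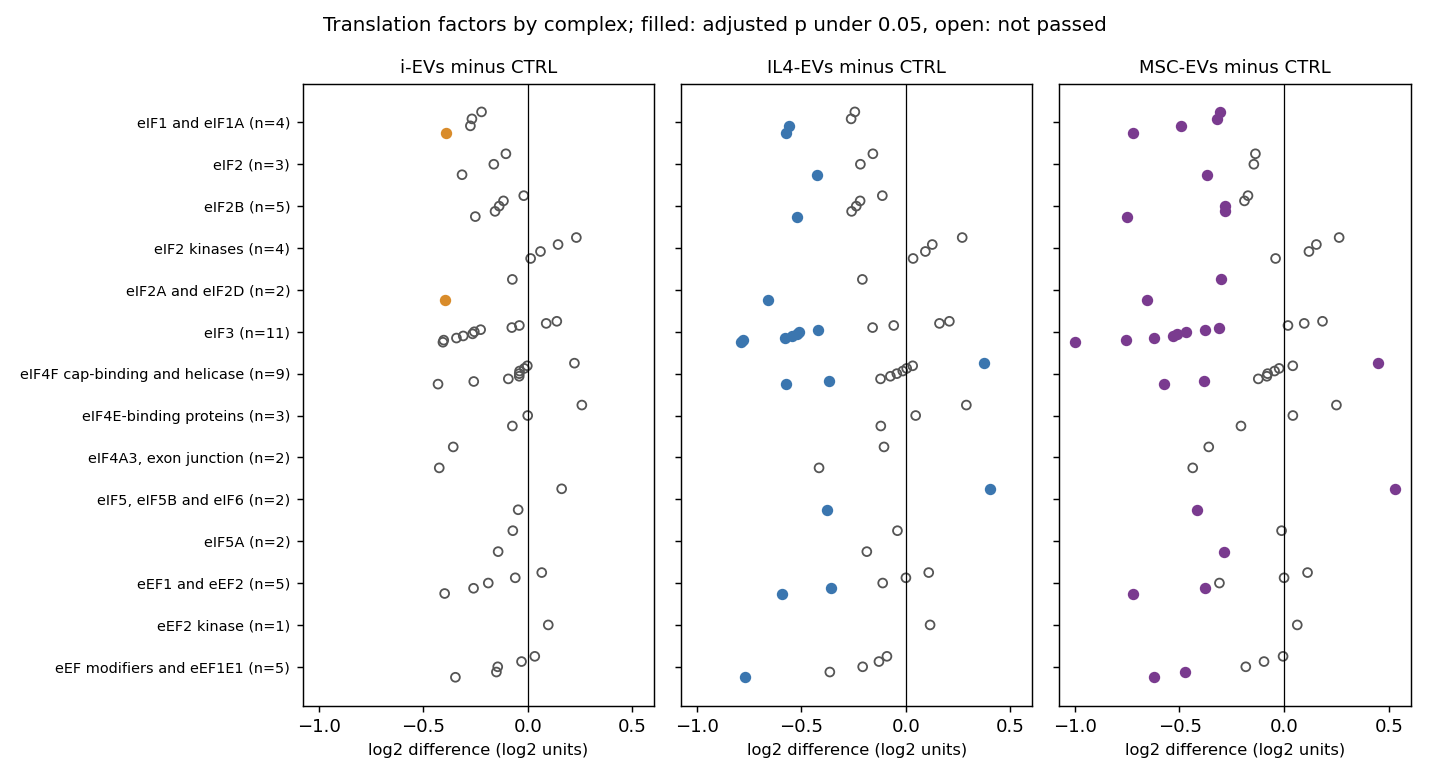
Log2 difference of each of 58 factors (horizontal axis, log2 units) by complex (vertical axis) in a panel each for i-EVs, IL4-EVs and then MSC-EVs minus CTRL; filled points have an adjusted p under 0.05 and open points did not pass. The filled points lie to the left of 0 apart from Eif5b and Eif4g3, and 8 of the 11 eIF3 points with MSC-EVs are filled.

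eIF3, the scaffold that binds the small subunit and recruits the mRNA, held the most falls of any list. It also had the most measured genes of any complex. Of its 11 measured subunits 8 fell with MSC-EVs, 7 with IL4-EVs and none with i-EVs, and none rose in any of the 3 comparisons. Lower were 72.7% with MSC-EVs and 63.6% with IL4-EVs, beside 6.75% and 4.13% of all clusters and 26.2% and 18% of bright ones. The smaller list of eIF1 and eIF1A reached 100% with MSC-EVs, as did that of eIF2A and eIF2D. These counts of 8 and 7 held in each of the 12 fits that left out 1 array, while the count with i-EVs reached 7 without array 1 of the i-EVs. After either rescaling the counts were 6 with MSC-EVs and 7 with IL4-EVs. Budding yeast lacks 7 of the measured subunits, eIF3d, e, f, h, k, l and m, and in a grouping made after their values were seen all 7 fell with MSC-EVs and 6 with IL4-EVs. Of the other 4 (Eif3b, Eif3c, Eif3i and Eif3j2) only Eif3i fell in either comparison.

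Eif3k gave the largest fall of any factor. Its log2 intensities were 12.15, 11.77 and 11.94 with i-EVs, 11.58, 11.58 and 11.57 with IL4-EVs and 11.34, 11.51 and 11.21 with MSC-EVs, against 12.32, 12.33 and 12.42 in CTRL. Every vesicle array lay below every CTRL array, and the i-EV arrays lay between CTRL and the other groups. The difference from CTRL was -0.999 with MSC-EVs, a fold of 0.500 (SE 0.098 log2 units, adjusted p = 0.000322), -0.78 with IL4-EVs (adjusted p = 0.00184) and -0.40 with i-EVs (adjusted p = 0.0838). With i-EVs Eif3k passed when only bright clusters or clusters with 1 symbol entered the fit (adjusted p = 0.0246 and 0.0397). It also passed without array 1 of the i-EVs or array 3 of the MSC-EVs (0.0275 and 0.0469). Eif3l, the partner of eIF3k in the complex, was lower by 0.51 log2 units with MSC-EVs (adjusted p = 0.00184) and by 0.42 with IL4-EVs (adjusted p = 0.00959), at -0.26 with i-EVs.

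Eif3i, a subunit with a WD40 propeller, read 10.99, 10.59 and 10.75 log2 units with i-EVs, 10.34, 10.34 and 10.50 with IL4-EVs and 10.49, 10.47 and 10.32 with MSC-EVs, against 11.24, 11.09 and 11.23 in CTRL. The IL4-EV and MSC-EV arrays shared a range below that of i-EVs, and all lay below CTRL. Its differences were -0.79 with IL4-EVs (fold 0.579, SE 0.099, adjusted p = 0.00188), -0.75 with MSC-EVs (adjusted p = 0.000857) and -0.41 with i-EVs (adjusted p = 0.0856). With i-EVs Eif3i passed when only bright clusters or clusters with 1 symbol entered the fit (adjusted p = 0.025 and 0.0403). It also passed without array 1 of the i-EVs (0.0216). Eif3h lay at 15.75, 15.48 and 15.49 log2 units with i-EVs, 15.36, 15.29 and 15.37 with IL4-EVs and 15.33, 15.22 and 15.33 with MSC-EVs, against 15.89, 15.93 and 15.93 in CTRL. It fell by 0.58 log2 units with IL4-EVs (adjusted p = 0.00215) and by 0.62 with MSC-EVs (adjusted p = 0.000651), and with i-EVs it lay at -0.34 (adjusted p = 0.0685).

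Another 4 subunits fell in at least 1 comparison. Eif3d, which can itself bind the cap of some mRNAs in human cells, fell by 0.52 log2 units with IL4-EVs and by 0.53 with MSC-EVs, and Eif3e fell by 0.51 and by 0.38 in the same order. Eif3m fell by 0.55 log2 units with IL4-EVs and by 0.47 with MSC-EVs, while Eif3f passed with MSC-EVs alone (-0.31, adjusted p = 0.0102, against -0.16 and adjusted p = 0.246 with IL4-EVs). That Eif3f changed more with MSC-EVs than with IL4-EVs is not shown, since no factor passed in the comparison of these groups. A second, dim cluster named Eif3d, at 4.40 log2 units, stood at -0.50 with MSC-EVs (adjusted p = 0.00757).

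Eif3b and Eif3c, which belong to the core shared with budding yeast, did not fall. Eif3b read 12.87, 12.76 and 12.97 log2 units with i-EVs, 12.91, 13.00 and 13.05 with IL4-EVs and 12.90, 12.90 and 12.83 with MSC-EVs, against 12.71, 12.87 and 12.75 in CTRL. Eif3c read 14.45, 14.42 and 14.55 log2 units with i-EVs, 14.52, 14.46 and 14.52 with IL4-EVs and 14.58, 14.45 and 14.53 with MSC-EVs, against 14.39, 14.32 and 14.30 in CTRL. Neither passed, at 0.09, 0.21 and 0.10 for Eif3b and 0.14, 0.16 and 0.18 for Eif3c in the order i-EVs, IL4-EVs and MSC-EVs. Both did pass as higher with IL4-EVs and MSC-EVs after either rescaling, with differences of 0.26 to 0.39 log2 units. Eif3j2, one of a pair of near-identical copies of the loosely bound eIF3j whose signals may not be separable, read -0.04, -0.06 and 0.02.

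**Figure D2:**
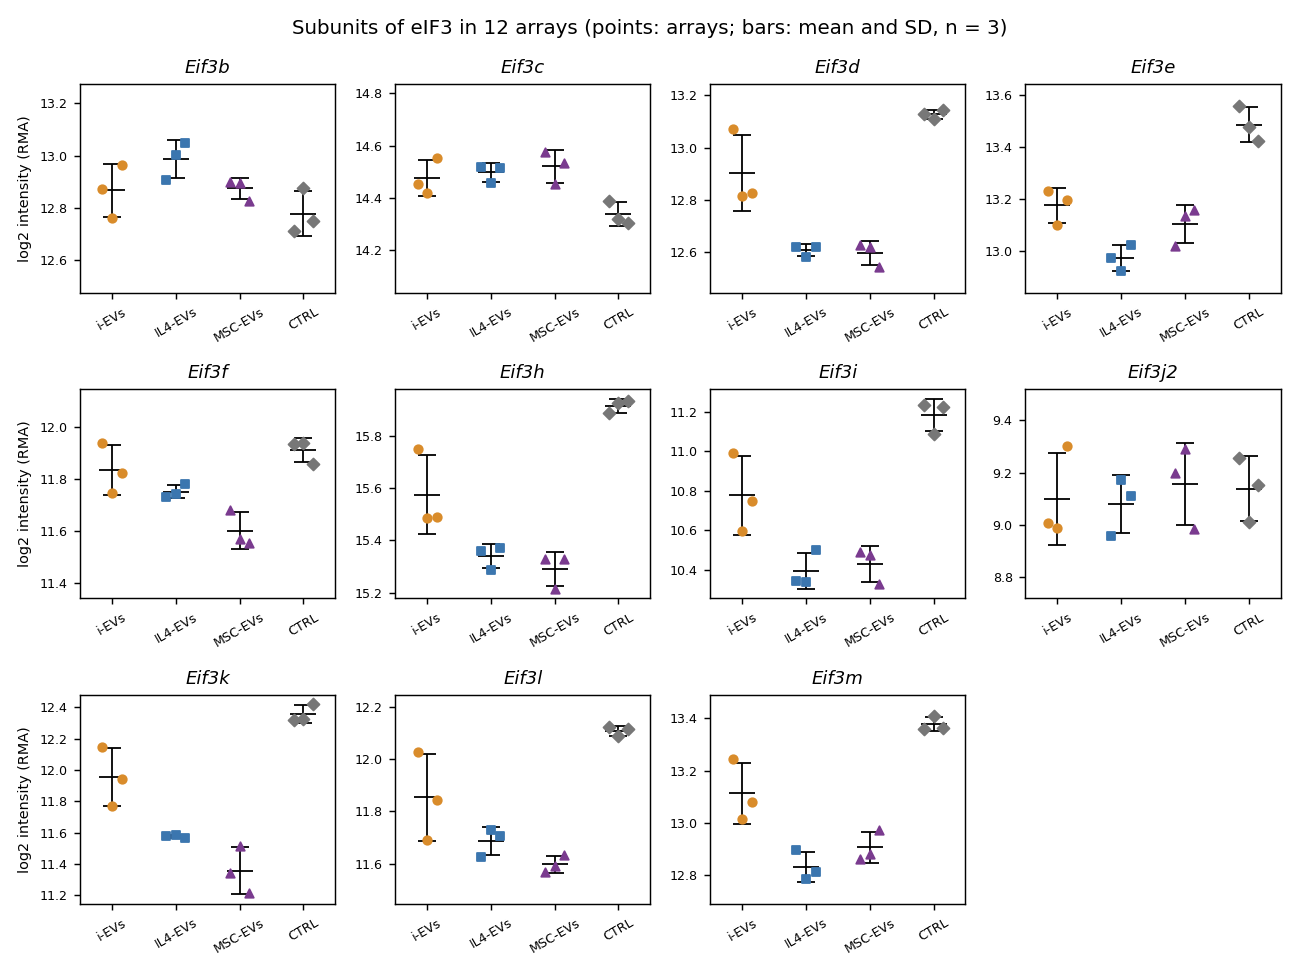
Log2 intensity (vertical axis, RMA) of the 11 measured eIF3 subunits in each array of i-EVs, IL4-EVs, MSC-EVs and CTRL, with bars for the mean and SD of 3 arrays. In Eif3d, Eif3e, Eif3h, Eif3i, Eif3k, Eif3l and Eif3m all vesicle arrays lie below all CTRL arrays, whereas Eif3b and Eif3c lie level with or above CTRL.

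eIF1 and eIF1A scan for the start codon, and all 4 measured genes of this list fell with MSC-EVs, against 2 with IL4-EVs and 1 with i-EVs. These shares of 100%, 50% and 25% stand beside 6.75%, 4.13% and 0.378% of all clusters and 26.2%, 18% and 1.75% of bright ones. Eif1ax, the X-linked eIF1A gene, read 13.04, 12.94 and 12.92 log2 units with i-EVs, 12.78, 12.82 and 12.80 with IL4-EVs and 12.82, 12.87 and 12.89 with MSC-EVs, against 13.42, 13.39 and 13.26 in CTRL. No vesicle array reached the CTRL range. The differences were -0.39 with i-EVs (fold 0.762, SE 0.063, adjusted p = 0.0372), -0.56 with IL4-EVs (adjusted p = 0.00138) and -0.49 with MSC-EVs (adjusted p = 0.000767). The call with i-EVs was lost after a further quantile normalization (-0.27, adjusted p = 0.107) and after cyclic loess (-0.25, adjusted p = 0.0752), and on leaving out any CTRL or IL4-EV array, array 2 or 3 of the i-EVs or array 1 of the MSC-EVs (adjusted p of 0.0536 to 0.167). It was also lost with trend and robust priors (adjusted p = 0.0554) and with only the 2 groups in the fit (adjusted p = 0.099).

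Eif1b, a copy of eIF1, read 13.58, 13.15 and 13.39 log2 units with i-EVs, 13.03, 13.08 and 13.08 with IL4-EVs and 12.95, 13.06 and 12.74 with MSC-EVs, against 13.81, 13.59 and 13.51 in CTRL. The i-EV arrays overlapped CTRL and the others did not. It fell by 0.72 log2 units with MSC-EVs (adjusted p = 0.00239) and by 0.57 with IL4-EVs (adjusted p = 0.0151), and the IL4-EV call was lost without CTRL 1 (adjusted p = 0.0758) or without any 1 of the IL4-EV arrays (0.051 to 0.0588), and after a further quantile normalization (-0.40, adjusted p = 0.0634). Eif1a and Eif1ad, named as an eIF1A domain protein, fell with MSC-EVs by 0.32 and by 0.31 log2 units.

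The subunits of eIF2 changed unevenly. Eif2s2, the beta subunit, fell by 0.42 log2 units with IL4-EVs (adjusted p = 0.00481) and by 0.37 with MSC-EVs (adjusted p = 0.00473), and stood at -0.31 with i-EVs (adjusted p = 0.064). The gamma subunit has an X-linked and a Y-linked gene, whose close sequences may share probes. Eif2s3x read 15.72, 15.65 and 15.72 log2 units with i-EVs, 15.65, 15.67 and 15.61 with IL4-EVs and 15.69, 15.65 and 15.63 with MSC-EVs, against 15.86, 15.84 and 15.71 in CTRL. Eif2s3y read 7.98, 8.11 and 8.20 log2 units with i-EVs, 8.08, 8.04 and 8.0 with IL4-EVs and 8.11, 8.14 and 8.11 with MSC-EVs, against 8.37, 8.26 and 8.14 in CTRL. Neither gamma gene passed in any comparison with CTRL, with differences of -0.10 to -0.22 log2 units, and the Y-linked gene was measured well above the dim clusters in all 12 arrays. Eif2s3y passed as lower with IL4-EVs when only bright clusters entered the fit (-0.22, adjusted p = 0.0422). Over the alternative fits the difference of Eif2s3x ranged from -0.20 to 0.06 with IL4-EVs and from -0.19 to 0.12 with MSC-EVs.

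All 5 eIF2B subunits had negative differences in all 3 comparisons, of which 3 passed with MSC-EVs and 1 with IL4-EVs. These shares of 60% and 20% stand beside 6.75% and 4.13% of all clusters lower and 26.2% and 18% of bright ones. Eif2b2, the beta subunit of this exchange factor, read 7.49, 7.22 and 7.25 log2 units with i-EVs, 6.95, 7.12 and 7.09 with IL4-EVs and 6.78, 6.92 and 6.75 with MSC-EVs, against 7.54, 7.55 and 7.63 in CTRL. The MSC-EV arrays were lowest and overlapped no other group. It fell by 0.75 log2 units with MSC-EVs, a fold of 0.594 (SE 0.086, adjusted p = 0.000492), by 0.52 with IL4-EVs (adjusted p = 0.00516), and stood at -0.25 with i-EVs (adjusted p = 0.208). Eif2b4 and Eif2b5, the delta and epsilon subunits, each fell by 0.28 log2 units with MSC-EVs, while Eif2b1 and Eif2b3 did not pass, at -0.17 and -0.19.

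Eif2a encodes eIF2A, a protein distinct from eIF2 that can deliver initiator tRNA, and of all 59 genes it had the smallest adjusted p in all 3 comparisons with CTRL. Its log2 intensities were 10.60, 10.50 and 10.58 with i-EVs, 10.23, 10.36 and 10.30 with IL4-EVs and 10.29, 10.35 and 10.27 with MSC-EVs, against 10.99, 10.97 and 10.91 in CTRL. The i-EV arrays lay between those of CTRL and of the other vesicles without touching either. The differences were -0.39 with i-EVs (fold 0.761, SE 0.061, adjusted p = 0.0361), -0.66 with IL4-EVs (adjusted p = 0.00124) and -0.65 with MSC-EVs (adjusted p = 0.000271). The i-EV call was lost after a further quantile normalization (-0.29, adjusted p = 0.06) and on leaving out the same arrays as for Eif1ax (adjusted p of 0.0508 to 0.167). It was also lost with trend and robust priors (adjusted p = 0.0531) and with only the 2 groups in the fit (adjusted p = 0.0958). Eif2d, which also delivers tRNA to the ribosome, was dim and fell by 0.30 log2 units with MSC-EVs (adjusted p = 0.0151).

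None of the 4 eIF2 kinases, the stress sensors that phosphorylate eIF2, passed in any comparison. Eif2ak3, the kinase PERK of the endoplasmic reticulum, came nearest, with 9.06, 9.06 and 9.28 log2 units with i-EVs, 9.10, 9.25 and 9.15 with IL4-EVs and 9.19, 9.23 and 9.07 with MSC-EVs, against 8.86, 8.99 and 8.85 in CTRL. Every vesicle array exceeded every CTRL array, with differences of 0.23, 0.27 and 0.26 and adjusted p of 0.218, 0.0856 and 0.0567 in the order i-EVs, IL4-EVs and MSC-EVs. It passed as higher with IL4-EVs and MSC-EVs after either rescaling (0.34 to 0.38 log2 units), when only bright clusters or clusters with 1 symbol entered the fit, and with MSC-EVs without array 3 of the i-EVs or of the MSC-EVs (adjusted p = 0.0394 and 0.0423).

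Eif2ak4, the amino acid sensor GCN2, read 5.98, 5.97 and 6.13 log2 units with i-EVs, 6.06, 6.15 and 6.07 with IL4-EVs and 6.06, 6.18 and 6.12 with MSC-EVs, against 5.90, 6.03 and 5.98 in CTRL. Eif2ak1, the heme-regulated kinase, read 11.49, 11.47 and 11.58 with i-EVs, 11.44, 11.47 and 11.48 with IL4-EVs and 11.43, 11.47 and 11.08 with MSC-EVs, against 11.32, 11.42 and 11.36 in CTRL. Array 3 of the MSC-EVs alone pulled the mean of that group below CTRL. Eif2ak2, the double-stranded RNA sensor PKR and an interferon target, was dim in all groups, where i-EV arrays read 4.90 to 5.14 log2 units, IL4-EV arrays 4.98 to 5.07 and MSC-EV arrays 5.03 to 5.25, against 4.94 to 5.02 in CTRL.

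The stress response that these kinases drive was followed through 14 listed targets. None rose in any comparison with CTRL, 3 (21.4%) fell with IL4-EVs and 3 with MSC-EVs, beside 4.13% and 6.75% of all clusters and 18% and 26.2% of bright ones, and none fell with i-EVs. The amino acid synthesis enzymes Asns (-0.32 with IL4-EVs, -0.39 with MSC-EVs) and Psat1 (-0.39 and -0.36) and the transcription factor Atf4 (-0.31 with either) were those that fell. Ddit3, Trib3 and the phosphatase subunit Ppp1r15a did not pass, with differences between -0.19 and 0.07 log2 units, and the last 2 were dim.

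**Figure D3:**
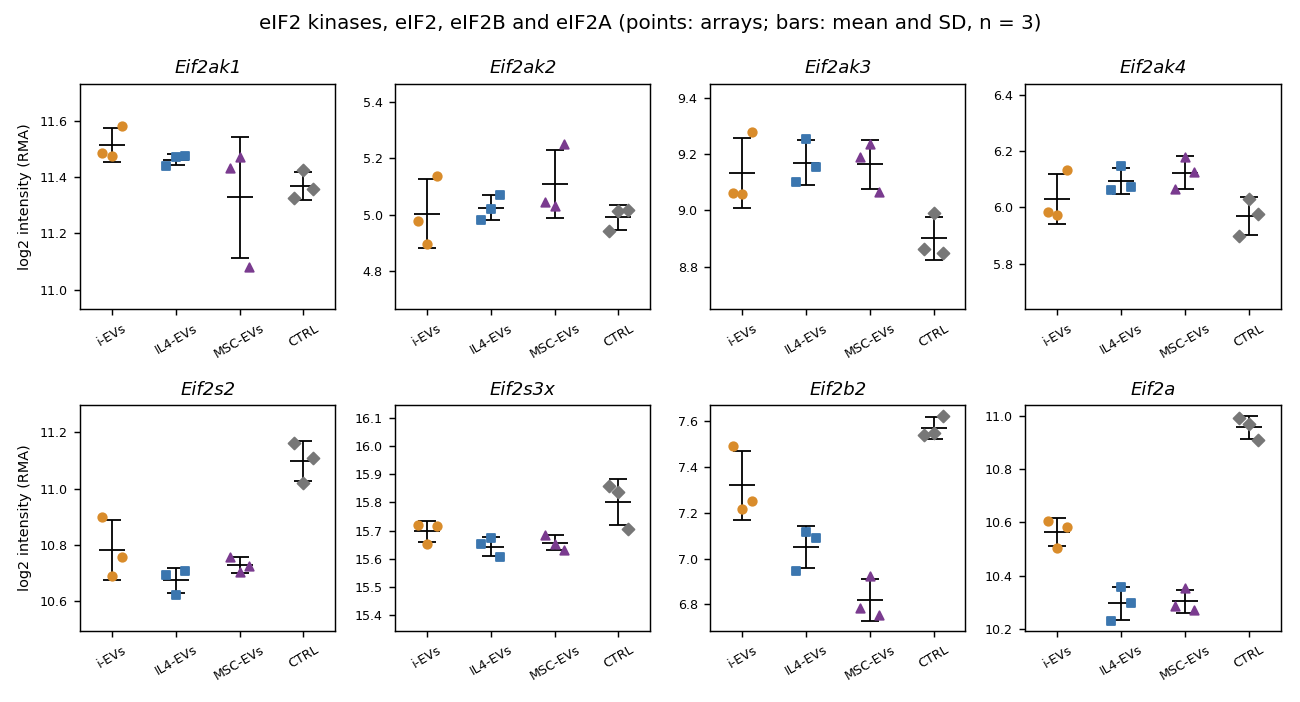
Log2 intensity (vertical axis, RMA) of the 4 eIF2 kinases, of Eif2s2 and Eif2s3x, of Eif2b2 and of Eif2a in each array of i-EVs, IL4-EVs, MSC-EVs and CTRL, with bars for the mean and SD of 3 arrays. Eif2a and Eif2b2 step down with the vesicles, Eif2ak3 lies above CTRL in every vesicle array, and array 3 of the MSC-EVs lies apart for Eif2ak1.

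The cap-binding list holds the cap-binding proteins, the eIF4G scaffolds and the eIF4A helicase with its helpers. Of its 9 measured genes, 2 fell and 1 rose with IL4-EVs and likewise with MSC-EVs, and none passed with i-EVs. The share that fell, 22.2% each time, was near that of bright clusters, 18% for IL4-EVs and 26.2% for MSC-EVs (all clusters: 4.13% and 6.75%). The share that rose was 11.1%, beside 6.47% and 15.3% of bright clusters in the same order (all clusters: 1.61% and 5.86%). Eif4e, the cap-binding protein itself, read 13.87, 13.73 and 13.63 log2 units with i-EVs, 13.56, 13.52 and 13.73 with IL4-EVs and 13.62, 13.51 and 13.68 with MSC-EVs, against 14.28, 14.14 and 14.11 in CTRL. All vesicle arrays lay below CTRL and overlapped each other. It fell by 0.57 log2 units both with IL4-EVs (fold 0.672, SE 0.087, adjusted p = 0.0035) and with MSC-EVs (adjusted p = 0.00165), and stood at -0.43 with i-EVs (adjusted p = 0.0541). With i-EVs Eif4e passed when only bright clusters or clusters with 1 symbol entered the fit (adjusted p = 0.0161 and 0.0232). It also passed with the replicate block (0.0486) and without array 1 of the i-EVs or array 3 of the MSC-EVs (0.0269 and 0.0338). Eif4e2, a cap-binding relative that represses translation, fell by 0.37 with IL4-EVs and by 0.38 with MSC-EVs.

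Eif4g3, a scaffold of eIF4F, was the member of this list that rose. It read 9.03, 8.89 and 9.11 log2 units with i-EVs, 9.05, 9.24 and 9.19 with IL4-EVs and 9.27, 9.22 and 9.23 with MSC-EVs, against 8.68, 8.82 and 8.87 in CTRL. All vesicle arrays were above CTRL. The rise was 0.45 log2 units with MSC-EVs, a fold of 1.36 (SE 0.078, adjusted p = 0.0034), and 0.37 with IL4-EVs (adjusted p = 0.0167), a call lost without CTRL 1 or IL4-EVs 2 or 3 (adjusted p of 0.0678 to 0.0856), and it stood at 0.22 with i-EVs (adjusted p = 0.22).

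The remaining genes of this list, Eif4a1, Eif4b, Eif4h, Eif4g2, Eif4e1b and Eif4e3, had differences between -0.12 and 0.04 log2 units and did not pass, although Eif4g2 passed as higher with MSC-EVs after either rescaling (0.28 and 0.24). No eIF4E-binding protein with a cluster of its own passed in this fit. Eif4ebp1, the repressor of eIF4E under control of mTOR, read 7.32, 7.14 and 7.19 log2 units with i-EVs, 7.27, 7.16 and 7.07 with IL4-EVs and 7.03, 7.17 and 7.04 with MSC-EVs, against 7.27, 7.37 and 7.23 in CTRL. It passed as lower with MSC-EVs when only bright clusters entered the fit (-0.21, adjusted p = 0.0443). Eif4ebp2, its relative, stood at 0.26, 0.29 and 0.25 in the order i-EVs, IL4-EVs and MSC-EVs, and passed as higher after cyclic loess with IL4-EVs (0.40, adjusted p = 0.0496) and with MSC-EVs (0.36, adjusted p = 0.0476).

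Eif5b, the GTPase that joins the ribosomal subunits, gave the largest rise. Its log2 intensities were 10.82, 10.78 and 10.86 with i-EVs, 11.04, 11.13 and 10.99 with IL4-EVs and 11.14, 11.17 and 11.24 with MSC-EVs, against 10.59, 10.68 and 10.69 in CTRL. The 4 groups did not overlap, and the levels ran in the order MSC-EVs, IL4-EVs, i-EVs and CTRL, but no pair of neighbours in this order passed a test of their difference. The rise was 0.53 with MSC-EVs, a fold of 1.44 (SE 0.062, adjusted p = 0.000564), and 0.40 with IL4-EVs (adjusted p = 0.00397), and with i-EVs the difference was 0.16 (adjusted p = 0.269). Eif6, which keeps the subunits apart, fell by 0.38 log2 units with IL4-EVs (adjusted p = 0.0397) and by 0.41 with MSC-EVs (adjusted p = 0.014). Eif5a, the hypusine-bearing factor that relieves stalled ribosomes, fell by 0.29 with MSC-EVs (adjusted p = 0.0137), and its relative Eif5a2 stood between -0.07 and -0.01.

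Of the 5 measured genes of eEF1 and eEF2, the 2 that fell belong to the nucleotide exchange complex of eEF1. This share of 40% with IL4-EVs and with MSC-EVs stands beside 4.13% and 6.75% of all clusters and 18% and 26.2% of bright ones. Eef1b2, the catalytic subunit of this complex, read 13.39, 13.08 and 13.22 log2 units with i-EVs, 13.05, 12.91 and 13.14 with IL4-EVs and 12.92, 12.96 and 12.85 with MSC-EVs, against 13.69, 13.58 and 13.62 in CTRL. All vesicle arrays lay below CTRL. It fell by 0.72 with MSC-EVs, a fold of 0.606 (SE 0.087, adjusted p = 0.000576), and by 0.59 with IL4-EVs (adjusted p = 0.00292), and stood at -0.40 with i-EVs (adjusted p = 0.064). With i-EVs Eef1b2 passed when only bright clusters or clusters with 1 symbol entered the fit (adjusted p = 0.0189 and 0.0276). It also passed without array 1 of the i-EVs or array 3 of the MSC-EVs (0.0231 and 0.0434). Eef1d, another subunit of this complex, fell by 0.36 log2 units with IL4-EVs and by 0.38 with MSC-EVs.

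Eef1a1, which brings each tRNA to the ribosome, could not be compared. Its cluster read 19.55 log2 units in 11 arrays, with a range of 0 among them, and 19.37 in array 2 of the i-EVs, where the highest value of the whole array was also lower (19.75 against 19.93). A value that is identical across 11 arrays carries no information on a difference, and Eef1a1 has many near-identical copies in the genome. Eef2, the translocase, was also near the top of the scale, at 18.46, 18.29 and 18.46 with i-EVs, 18.44, 18.44 and 18.45 with IL4-EVs and 18.46, 18.44 and 18.44 with MSC-EVs, against 18.30, 18.35 and 18.36 in CTRL. It did not pass (0.07, 0.11 and 0.11 in the order i-EVs, IL4-EVs and MSC-EVs), but passed as higher with MSC-EVs after a further quantile normalization (0.29, adjusted p = 0.0127) and after cyclic loess (0.33, adjusted p = 0.00484), and with IL4-EVs after cyclic loess (0.24, adjusted p = 0.0436).

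Eef2k, the kinase that inhibits eEF2, read 6.39, 6.37 and 6.42 log2 units with i-EVs, 6.38, 6.46 and 6.40 with IL4-EVs and 6.30, 6.47 and 6.31 with MSC-EVs, against 6.32, 6.33 and 6.24 in CTRL, and did not pass. Eef1akmt1, a lysine methyltransferase of eEF1A, read 7.75, 7.35 and 7.55 log2 units with i-EVs, 7.16, 7.09 and 7.13 with IL4-EVs and 7.17, 7.19 and 7.46 with MSC-EVs, against 8.03, 7.52 and 8.13 in CTRL. Its CTRL arrays were the most spread of all 59 genes (SD 0.33). It fell by 0.77 with IL4-EVs (SE 0.152, adjusted p = 0.0123) and by 0.62 with MSC-EVs (adjusted p = 0.019). The IL4-EV call was lost without CTRL 1 or IL4-EVs 2 and the MSC-EV call without CTRL 1 or 3 or MSC-EVs 1 or 2 (adjusted p of 0.055 to 0.0837), and the MSC-EV call also with only the 2 groups in the fit (adjusted p = 0.0837). Eef1e1, a component of the aminoacyl-tRNA synthetase complex, fell by 0.47 with MSC-EVs (adjusted p = 0.0203).

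**Figure D4:**
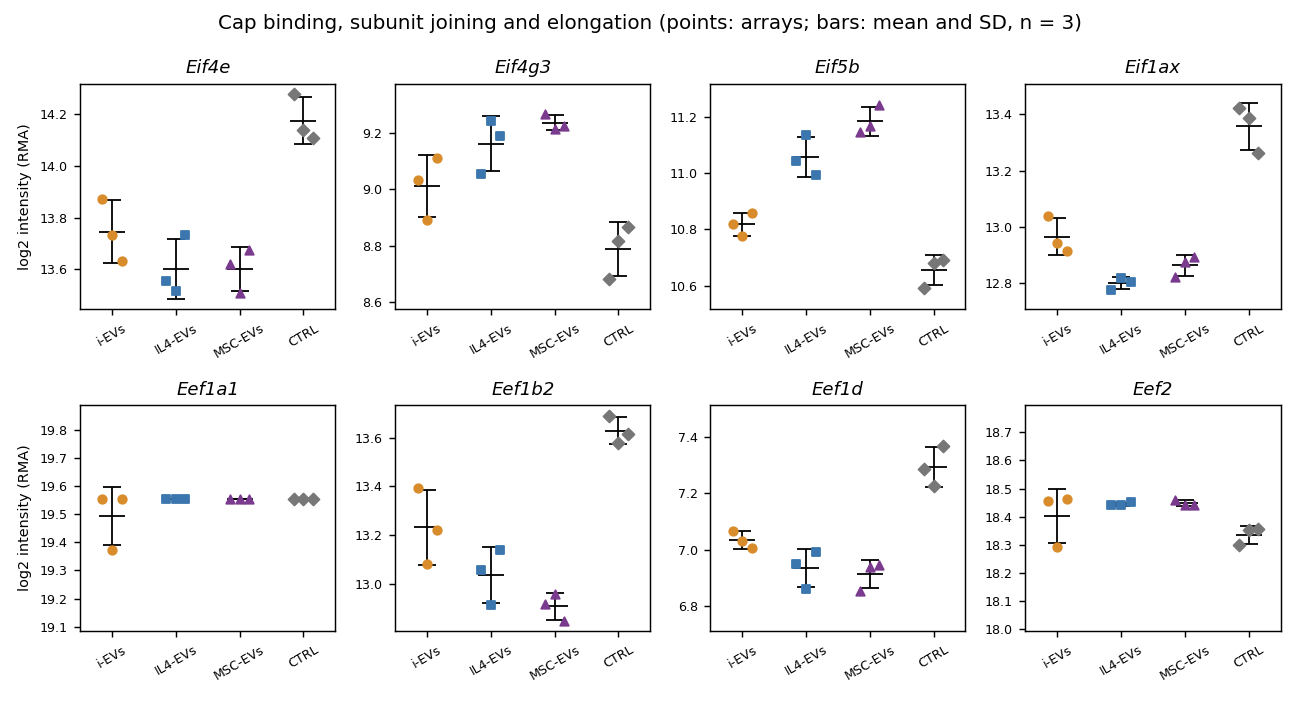
Log2 intensity (vertical axis, RMA) of Eif4e, Eif4g3, Eif5b, Eif1ax, Eef1a1, Eef1b2, Eef1d and Eef2 in each array of i-EVs, IL4-EVs, MSC-EVs and CTRL, with bars for the mean and SD of 3 arrays. Eif5b and Eif4g3 lie above CTRL in all vesicle arrays, Eif4e, Eif1ax, Eef1b2 and Eef1d lie below it, and Eef1a1 has 1 value in 11 of 12 arrays.

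Set directly against each other, the vesicles differed in 3 factors. MSC-EVs were lower than i-EVs for Eif3k (-0.60, SE 0.098, adjusted p = 0.0258) and Eif2b2 (-0.50, SE 0.086, adjusted p = 0.0261) and higher for Eif5b (0.37, SE 0.062, adjusted p = 0.0261), beside 0.385% of all clusters lower and 1.07% higher. In each of the 3 genes the arrays of the 2 groups did not overlap (all clusters: 9.92% lower, 8.11% higher). All 3 calls were lost without array 1 or 3 of the i-EVs or array 3 of the MSC-EVs (adjusted p of 0.0548 to 0.0863) and with only the 2 groups in the fit, that of Eif5b also without i-EVs 2 (0.0607) and that of Eif2b2 without MSC-EVs 1 (0.0536). No factor passed between IL4-EVs and i-EVs (0% of all clusters) or between MSC-EVs and IL4-EVs (0% lower and 0.00153% higher). Between IL4-EVs and i-EVs 14 factors, all bright, had an unadjusted p under 0.05, beside 4954 of all 65535 clusters and 1839 of the 13061 bright ones. Between MSC-EVs and IL4-EVs 3 factors had one, all bright, beside 5838 of all clusters and 1931 of the bright ones. The comparisons with CTRL share the CTRL arrays, so their values for one gene stand side by side and are not independent.

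A second list held translation genes outside the name rule. Of 22 measured genes for poly(A)-binding, ribosome recycling, helicases, eIF4E kinases, hypusine formation and eIF2 phosphatases, 3 (13.6%) fell with IL4-EVs, 3 fell and 1 rose with MSC-EVs, and none passed with i-EVs, beside 4.13% of all clusters and 18% of bright ones lower with IL4-EVs and 6.75% and 26.2% with MSC-EVs. The share that rose with MSC-EVs, 4.55%, was below that of all clusters (5.86%) and of bright ones (15.3%). Dhps, which makes the hypusine of eIF5A, fell by 0.39 log2 units with IL4-EVs and by 0.47 with MSC-EVs. Paip2, which represses the poly(A)-binding protein, fell by 0.34 and by 0.26, and Abce1, which splits ribosomes after termination, by 0.30 and by 0.29, in the same order. Ddx3x, an RNA helicase that acts on structured mRNAs, rose by 0.25 log2 units with MSC-EVs. Whether the share differs from that of the 59 factors was not tested. Clusters that join a factor name with another symbol numbered 7 and fell outside the rule, and none of them passed with i-EVs. The one naming Eif4a3 stood at -0.48 with IL4-EVs (adjusted p = 0.0094) and -0.40 with MSC-EVs (adjusted p = 0.0128), and the one naming Eef1g at -0.27 with MSC-EVs (adjusted p = 0.0213). The cluster naming Ankhd1 and Eif4ebp3 went the other way, at 0.35 with MSC-EVs (adjusted p = 0.0115). Those naming Eif5, Eif4a2, Eif3j1 with Eif3j2, and Ago4 with its old name Eif2c4 passed in no comparison with CTRL. The shares of all and of bright clusters given above for this list apply to these clusters too.

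Many factor mRNAs carry a 5′ terminal oligopyrimidine (TOP) tract, through which mTOR governs their translation. Of 8 measured factors with known TOP mRNAs in human cells, 4 fell with IL4-EVs (Eef1b2, Eef1d, Eif3e and Eif3h) and 5 with MSC-EVs (these and Eif3f), while Eef2 and Eif4b did not pass and Eef1a1 could not be compared. These shares of 50% and 62.5% stand beside 4.13% and 6.75% of all clusters and 18% and 26.2% of bright ones. The genes that fell are the eIF3 and eEF1 subunits already described above. The bases around the RefSeq start sites show the tract in part. The 3 longest marked runs, which need not be the longest whole tracts, are printed here. Among them eIF3f fell and both eIF2 gamma genes did not pass in the fit over all clusters. Capitals mark at least 5 unbroken pyrimidines, read from the nearest C within 10 bases of the annotated start that opens so many. Pyrimidines directly before that C stay in lower case. A whole tract can so be longer than its capitals, also in factors not printed, such as Eif2b5 and Eif2c5. The mouse build is GRCm38.p6.
Eif3f, chr7:108934403-108934432, plus strand: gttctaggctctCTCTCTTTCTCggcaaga
Eif2s3x, chrX:94212634-94212663, minus strand: ccgagcattttcCTTTTCTCTCCgagcaag
Eif2s3y, chrY:1010583-1010612, plus strand: gaggccacagccaCTTCCTTCTTTCgtgag
Such a run was found for 7 of 19 factors that fell with MSC-EVs and had a promoter sequence (36.8%), for 12 of 24 that did not pass (50%) and for 34.4% of all 27025 genes in the table. The start sites are annotated ones and were not measured in these cells.

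Promoter letters were compared in the same table, from 250 bases before to 50 after each start, for the 45 factors that have an entry. The letters CCGGAAG on either strand, the core bound by ETS family proteins, occurred in 11 of 19 factors that fell with MSC-EVs (57.9%) and in 5 of 24 that did not pass (20.8%). They occurred in 9.93% of all genes, in 30.1% of 1438 coding genes with a mean of at least 6 that fell with MSC-EVs and in 21.3% of 3650 such genes that did not pass. Unlike these coding genes, the factors were not limited to bright ones, here and in the later comparison of YY1 letters. Dim factors were Eif2b4, with the letters, and Eif2d, without them, among those that fell. Among those that did not pass, Eef1aknmt, Eef2kmt, Eif2ak2, Eif4a3l1 and Eif2c5 were dim, all without the letters. The windows of 6 factors that fell and of 2 that did not pass are printed with these letters, or their reverse complement CTTCCGG, in capitals, to show where they lie in the genes described above.
Eif3d, chr15:77970876-77970905, minus strand: gctgtgacacaCTTCCGGttgtgtctcact
Eif3l, chr15:79075177-79075206, plus strand: gctgggcgggaCTTCCGGtccggccaagca
Eif3m, chr2:105017064-105017093, minus strand: ctgtggctgacCCGGAAGcggttgtgcgta
Eif1b, chr9:120492445-120492474, plus strand: cgccgttgcacCCGGAAGcgcctccgcccg
Eif2b2, chr12:85219486-85219515, plus strand: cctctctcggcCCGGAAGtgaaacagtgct
Eef1b2, chr1:63176821-63176850, plus strand: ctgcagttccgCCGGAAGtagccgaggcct
Eif3c, chr7:126566382-126566411, minus strand: aaccttttcctCTTCCGGcgtcgtgcctgt
Eif2ak1, chr5:143817797-143817826, plus strand: ctcttgtgttaCTTCCGGcttggggggagg
The letters begin at position 1 from the start in Eef1b2, at 16 in Eif2b2 and Eif2ak1, and upstream in the others, at -34 in Eif3c, -35 in Eif3l, -55 in Eif3m, -70 in Eif3d and -150 in Eif1b. Eif3k, the factor with the largest fall, has a promoter entry without these letters. The letters AAGATGGC of the factor YY1, which can share AAG with them, were in 3 of the 19 factors that fell (15.8%), in 3 of the 24 that did not pass (12.5%) and in 3.19% of all genes, and in 8.0% and 5.86% of the coding genes with a mean of at least 6 that fell and that did not pass. A match in these letters is a description and not a bound site.

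The factors that rose have long genes, and gene span went with the difference over the whole array. With MSC-EVs Spearman's rho between the genomic span and the log2 difference was 0.35 over the 50 bright factors, beside 0.54 over 6964 coding genes with a mean of at least 6. With IL4-EVs the values were 0.32 and 0.49, and with i-EVs 0.32 and 0.41. These are correlations across genes, which share the arrays and are not independent replicates. The median span of the bright factors was 17629.5 bp, against 28203 bp for the coding genes, and the part of gene span in the falls of the factors was not tested. Eif3h is an exception among the factors, with a long gene and a fall of 0.62 log2 units with MSC-EVs.

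**Figure D5:**
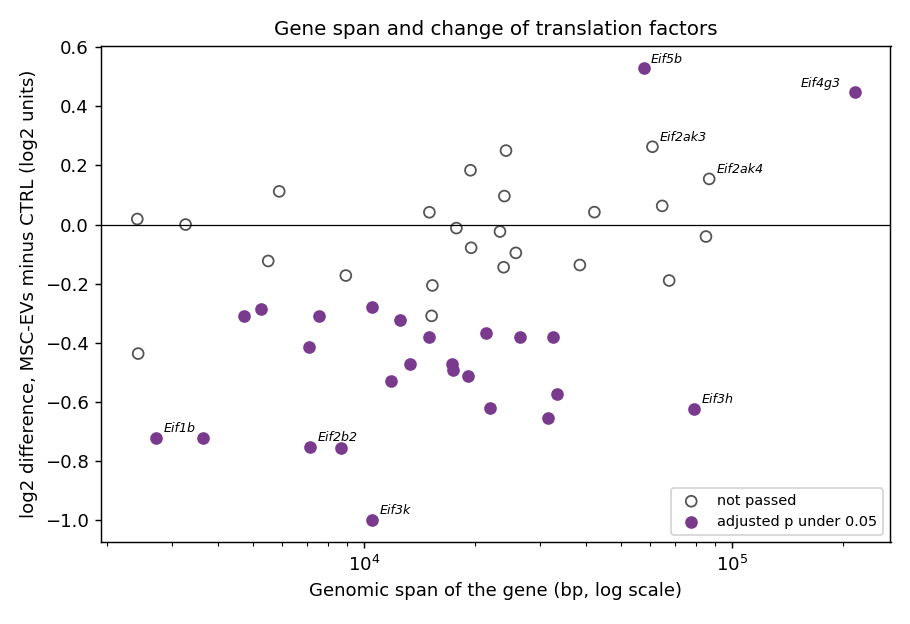
Log2 difference of MSC-EVs minus CTRL (vertical axis, log2 units) against the genomic span of the gene (horizontal axis, base pairs, log scale) for the 50 factors with a mean of at least 6; filled points have an adjusted p under 0.05. Eif5b and Eif4g3 lie at the upper right, and Eif3k, Eif2b2 and Eif1b lie low at short spans.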

How the data were processed

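The authors hybridized 100 ng of total RNA per sample to Clariom D mouse arrays (Affymetrix/Thermo Fisher) and summarized perfect-match probes by RMA with quantile normalization in TAC software. The submitters' processing notes also name Affymetrix Expression Console. The genome build and annotation version of the array are not given in the sources used here. The deposited values are linear RMA intensity values, between 3.34 and 999968, for 65535 transcript clusters and 12 arrays, and log2 of them was taken with no pseudocount. A second deposited table held the same values to within rounding (largest difference 4.44e-16 log2 units) and was not tested separately. The number of clusters is that of a spreadsheet at its row limit, and clusters beyond the last one were not analysed here. Precision rests on 3 arrays per group.

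Groups came from the labels. 1 mean per group was fitted with limma 3.58.1 (R 4.3.3, 8 residual and 3.46 prior degrees of freedom) over all clusters, and p-values were adjusted by Benjamini-Hochberg within each of 6 comparisons. Only the factors are described. The labels number the replicates, and the numbers were not used in this fit. The fit was tested on simulated data. Alternatives were a further quantile normalization, cyclic loess, a filter on clusters with a mean under 6 log2 units, clusters with 1 symbol, empirical Bayes with trend, the replicate number as a block, 2 groups at a time, the mean of a gene's clusters, a fold of at least 1.5, and each array left out. Per-array values are given for the 5 called factors with the lowest and the 5 with the highest difference in each comparison with CTRL (mean at least 6), for the eIF2 kinases, for Eif4e, Eif4ebp1, Eef1a1, Eef2, Eef2k and for both eIF2 gamma genes. Eif3h, Eif3b and Eif3c were added after their values were seen. The members and lists were chosen with earlier results of these data known. Promoter sequences are from RefSeq (GRCm38.p6), matched by symbol: all 59 factors matched a RefSeq gene and 45 a promoter. Gene spans are from the same annotation. Figures were drawn with Python 3.11.15 and matplotlib 3.10.9.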

Additional observations from a re-analysis of the deposited data

Results flagged for a closer look

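In 3 factors the effects of MSC-EVs and i-EVs, both set against the same CTRL arrays, differed in a test of the difference itself (limma, Benjamini-Hochberg over all clusters). Eif3k was lower with MSC-EVs than with i-EVs by -0.5972 log2 units (SE 0.0979, adjusted p = 0.0258), with every MSC-EV array below every i-EV array. Eif2b2 was lower by -0.5004 log2 units (SE 0.0857, adjusted p = 0.0261), again in all 3 arrays. Eif5b was higher by 0.366 log2 units (SE 0.0625, adjusted p = 0.0261), also in all 3. Without array 3 of the MSC-EVs, which stood apart in cell cycle genes, the adjusted p were 0.0597 for Eif3k, 0.069 for Eif2b2 and 0.0642 for Eif5b, all 3 calls were also lost without array 1 or 3 of the i-EVs and with only the 2 groups in the fit, and the part of that array's cell state in these differences was not tested.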

How the results depend on the processing

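Of the 18 results counted (factors lower, factors higher and median difference in 6 comparisons), 14 to 18 kept their size under each change of scaling, filter or model. The falls with i-EVs numbered 2 in the report, 0 after a further quantile normalization, 1 after cyclic loess, 14 among bright clusters, 12 among clusters with 1 symbol, 0 with trend and robust priors and 0 with only the 2 groups in the fit. The rises numbered 5, 7 and 4 with IL4-EVs (quantile, loess, bright clusters) and 7, 9, 4 and 4 with MSC-EVs (quantile, loess, bright clusters, 1 symbol). Between MSC-EVs and i-EVs, 4 factors were lower after quantile normalization, 10 among bright clusters, and 0 lower and 0 higher with 2 groups in the fit. The last 3 restrictions change how many clusters or arrays enter the fit, and the cause of the other changes was not tested. With a fold of at least 1.5, i-EVs left 0 falls, IL4-EVs 5 and MSC-EVs 8, 0 rose with either of the last 2, and 1 was lower and 0 higher between MSC-EVs and i-EVs.

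Leaving out 1 array at a time, the falls ranged over 0 to 12 with i-EVs (12 without i-EVs 1, 9 without MSC-EVs 3), over 15 to 19 with IL4-EVs and, for MSC-EVs, over 19 to 26, and the rises over 0 to 0, 1 to 2 and 2 to 3. Between MSC-EVs and i-EVs 0 to 2 were lower and 0 to 1 higher. The i-EV median ranged from -0.13 to -0.07, that of IL4-EVs from -0.20 to -0.15 and that of MSC-EVs from -0.24 to -0.19. With 1 array left out, 2 remain in that group. The Eef1a1 difference with MSC-EVs turned from 0.00 to 0.22 under cyclic loess (adjusted p = 0.034), at a cluster with 1 value in 11 arrays. With the replicate block 4 factors fell with i-EVs and the other 17 results kept their size; same-numbered samples of different groups correlated over 0.1 in 8 of 18 pairs (r of -0.30 to 0.33), against 9 of 36 pairs of different number. Of the 8, 5 were among the 6 pairs numbered 1 (0.09 to 0.33), and not every pair passed 0.1, so the numbers were not taken to pair the samples. Array brightness near the top of the scale limits Eef1a1 and Eef2, and the 9 dim factors have little signal to compare.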
